A study of Xenopus tropicalis with 15 samples.

Results

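The Hedgehog pathway genes described here are the ligand gene shh, the receptor genes ptch1 and hhip, and the transcription factor genes gli1.1, gli2 and gli3. They are 6 genes of 28206 in the table of counts, and all 6 passed the filter on low counts. They were chosen by name as core components of the pathway, though with earlier results of these data known. They were measured by RNA-seq of X. tropicalis gastrulae (wild-type, outbred Nigerian strain) at NF stage 11–11.5, in 5 libraries per condition with 10 whole embryos pooled in each. LiCl-treated embryos were placed in 0.3 M lithium chloride at the 32-cell stage, which dorsalises the embryo. UV-treated embryos were irradiated for 2 min within 30 min of fertilisation, which ventralises it. Untreated embryos received neither treatment, and the study kept only clutches whose siblings later showed the treatment phenotype at high penetrance.

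Hedgehog ligands are secreted proteins that bind Patched receptors. Without ligand, Patched represses Smoothened and Gli proteins are held back or processed to repressors. With ligand, Smoothened is released at the primary cilium, a sensory projection of the cell surface, and Gli proteins activate their targets. In the vertebrate gastrula and neurula shh is expressed in the axial midline, that is in the organiser, notochord and floor plate, and Hedgehog signals later pattern the neural tube and somites.

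The total count per library lay between 8412818 and 17737546 (median 11152157) in LiCl-treated embryos, between 11890416 and 18254396 (median 13987953) in UV-treated embryos and between 11002771 and 18455126 (median 16560816) in untreated embryos. Values are CPM, the counts of a gene scaled to a common library total, after TMM normalisation, which rescales library sizes. A gene was called changed at a fold change of at least 2 and a false discovery rate (FDR) of at most 0.01 in edgeR's quasi-likelihood test, adjusted over 14041 genes. LiCl replicate 4 and untreated replicate 4 stood apart from the rest. Their median correlations with the other libraries of their condition were 0.908 and 0.940, against 0.947 to 0.968 for all others. Several results that rest on them, but not all, are also given without them. Leaving out both was chosen after the data were seen.

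shh, the ligand gene, lies on scaffold 6 of assembly v7.1 (129426476 to 129445354, plus strand, Xetrov72034556). It had 16.7, 14.2, 19.6, 1.37 and 17.5 CPM in the 5 LiCl-treated libraries, 0.344, 0.962, 2.25, 0.182 and 0.347 CPM in the UV-treated libraries, and 10.5, 14.3, 8.34, 2.57 and 26.5 CPM in the untreated libraries. Every UV-treated library lay below every untreated library, while 4 of the 5 LiCl-treated libraries lay within the span of the untreated ones and replicate 4 of LiCl lay below it. The UV-treated values rest on 3 to 42 reads per library.

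shh was 16.4-fold higher in LiCl-treated than in UV-treated embryos, a log2 fold change of 4.03 (SE 0.788, 95% confidence interval 2.36 to 5.71, edgeR FDR 0.00257). The means were 13.9 ± 7.25 CPM in LiCl-treated and 0.816 ± 0.854 CPM in UV-treated embryos (SD, n = 5 each). The ranges overlapped, because LiCl replicate 4 at 1.37 CPM lay under UV replicate 3 at 2.25 CPM. The call held when any 1 library was left out, with log2 fold changes of 3.77 to 4.92. The filter asks for about 10 reads in 5 libraries, and shh had 5, 12, 42, 3 and 4 reads in UV-treated libraries. It therefore passed the filter only through the other conditions, where it was higher. With no filter the log2 fold change was 3.99 at an edgeR FDR of 0.0070, still called.

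Against untreated embryos (12.4 ± 8.94 CPM, SD, n = 5), the UV-treated mean of shh was 14.6-fold lower, with a log2 fold change of −3.87 (SE 0.784, interval −5.54 to −2.21). The edgeR FDR of 0.0359 did not pass the threshold. DESeq2 gave −3.91 at an FDR of 8.74e-06, and without LiCl and untreated replicate 4 edgeR gave −4.10 at 0.0018, both past it, while edgeR on the 10 libraries of the comparison gave −3.86 at 0.0428. With any 1 library left out the FDR lay between 0.0101 and 0.123. In whole embryos, fewer shh-expressing cells and less shh RNA per cell cannot be told apart.

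LiCl treatment left shh without a detectable difference from untreated embryos. The log2 fold change was 0.16 (SE 0.670, interval −1.26 to 1.58, edgeR FDR 0.920), and its sign turned when untreated replicate 4 was left out (−0.11). The interval covers a change of more than the 2-fold threshold in both directions.

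**Figure D1:**
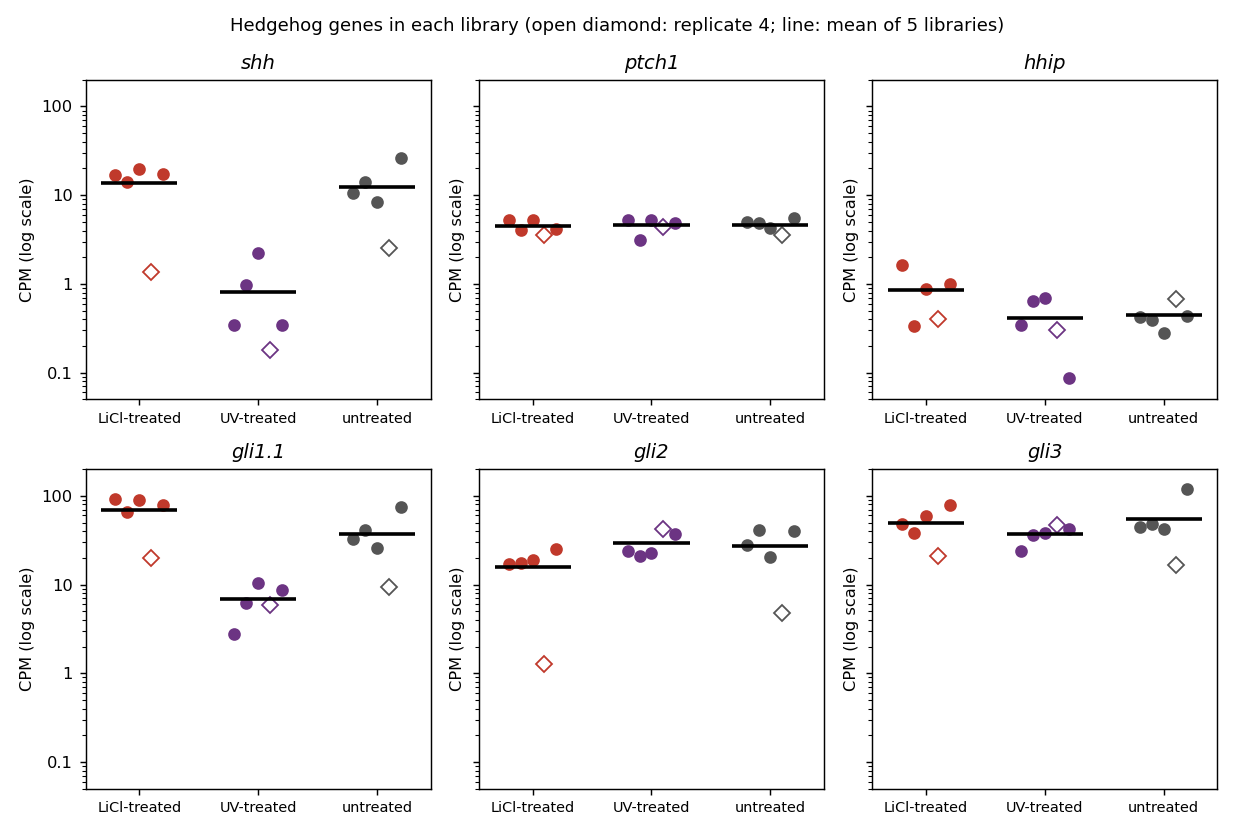
CPM (log scale, the same in all panels) of the 6 Hedgehog genes in each of the 5 LiCl-treated, 5 UV-treated and 5 untreated libraries, with the mean as a line and replicate 4 as an open diamond. The UV-treated libraries of shh reach 2.25 CPM and lie under all untreated ones, and ptch1 stays between 3.13 and 5.60 CPM in all 15 libraries.

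Of the receptors, ptch1 encodes the Patched protein that binds the ligand, and it is itself a Gli target in other vertebrates. The gene lies on scaffold 1 (89817657 to 89881538, plus strand, Xetrov72018835). It had 5.19, 4.03, 5.27, 3.54 and 4.20 CPM in LiCl-treated libraries, 5.22, 3.13, 5.19, 4.42 and 4.86 CPM in UV-treated libraries, and 4.98, 4.89, 4.31, 3.52 and 5.60 CPM in untreated libraries. All conditions overlapped, and ptch1 had the narrowest range of the 6 genes relative to its level. Its log2 fold change was −0.07 (interval −0.51 to 0.38, edgeR FDR 0.892) for LiCl-treated against untreated embryos. For UV-treated against untreated embryos it was −0.03 (interval −0.47 to 0.41, FDR 0.980), and LiCl-treated over UV-treated embryos gave −0.04 (interval −0.48 to 0.40, FDR 0.941). Each interval lies inside the 2-fold threshold on both sides.

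hhip encodes a membrane protein that binds Hedgehog ligands and keeps them from Patched. It lies on scaffold 1 (165724700 to 165806685, minus strand, Xetrov72019775). hhip was close to the limit of detection, with 1.63, 0.336, 0.879, 0.403 and 0.994 CPM in LiCl-treated libraries, 0.344, 0.641, 0.696, 0.303 and 0.0868 CPM in UV-treated libraries, and 0.420, 0.391, 0.281, 0.683 and 0.436 CPM in untreated libraries. These values rest on 1 to 18 reads per library. The LiCl-treated mean of 0.848 ± 0.522 CPM stood against 0.442 ± 0.147 CPM in untreated embryos (SD, n = 5 each), a log2 fold change of 0.91 (interval −0.15 to 1.96, edgeR FDR 0.263). The UV-treated mean of 0.414 ± 0.253 CPM gave a log2 fold change of −0.09 against untreated embryos (interval −1.18 to 0.99, FDR 0.972), and LiCl-treated over UV-treated embryos gave 1.00 (interval −0.06 to 2.06, FDR 0.211). No difference was detectable at this depth.

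gli1.1 encodes Gli1, an activator whose gene is switched on by Hedgehog signalling in other vertebrates and is often read as a sign of it. The gene lies on scaffold 2 (84470197 to 84479717, plus strand, Xetrov72028857), and 7 of the 16 genes nearest to it are also neighbours of gli1 in the RefSeq annotation. It had 91.9, 66.1, 90.7, 20.1 and 78.4 CPM in LiCl-treated libraries, 2.75, 6.25, 10.3, 5.87 and 8.77 CPM in UV-treated libraries, and 32.4, 40.7, 25.7, 9.45 and 75.4 CPM in untreated libraries. Every LiCl-treated library lay above every UV-treated one. Untreated replicate 4 lay inside the UV-treated range.

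gli1.1 was 10.2-fold higher in LiCl-treated than in UV-treated embryos (69.5 ± 29.5 against 6.79 ± 2.91 CPM, SD, n = 5 each), with a log2 fold change of 3.35 (SE 0.527, interval 2.23 to 4.47, edgeR FDR 0.000529). This call held in each of the 26 alternative analyses, with log2 fold changes of 3.15 to 3.60. Those that only loosened the FDR or fold threshold could not lose it. Against untreated embryos (36.7 ± 24.5 CPM), the UV-treated mean was 5.39-fold lower at a log2 fold change of −2.43 (SE 0.510, interval −3.52 to −1.35), and the FDR of 0.0432 missed the threshold. DESeq2 gave −2.43 at an FDR of 0.000131, and without LiCl and untreated replicate 4 edgeR gave −2.66 at 0.00168, while edgeR on the 10 libraries of the comparison gave −2.42 at 0.0579.

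LiCl-treated embryos had a mean of gli1.1 above that of untreated embryos, at a log2 fold change of 0.92 (SE 0.480, interval −0.10 to 1.94, edgeR FDR 0.238), which was not called. LiCl-treated and untreated libraries with the same replicate number deviated together from their condition means, so they were also compared number by number. On that scale of log2 (CPM + 0.1), gli1.1 was higher in the LiCl-treated library in 5 of 5 pairs, by 1.50, 0.70, 1.82, 1.08 and 0.06. The share of all genes with the same sign in all 5 pairs was not computed, so this count does not set gli1.1 apart. A fit of these 10 libraries with a replicate block gave gli1.1 a log2 fold change of 1.03 at an FDR of 0.0165, still not called. With the block over all 15 libraries, which also pairs the UV-treated ones, it was 1.01 at an FDR of 0.0874.

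gli2 and gli3 encode the other Gli proteins. In the mouse they act before Gli1, with Gli2 the main first activator and Gli3 mostly processed to a repressor. gli2 lies on scaffold 385 (20510 to 82895, plus strand, Xetrov72003360) and gli3 on scaffold 6 (85718203 to 85852721, minus strand, Xetrov72033142). gli2 had 16.9, 17.4, 18.8, 1.29 and 25.5 CPM in LiCl-treated libraries, 23.9, 21.1, 22.7, 41.9 and 36.8 CPM in UV-treated libraries, and 27.7, 41.2, 20.3, 4.83 and 40.3 CPM in untreated libraries. All 3 conditions overlapped, with the lowest values in LiCl and untreated replicate 4. gli3 had 48.5, 37.8, 59.0, 21.1 and 79.6 CPM in LiCl-treated libraries, 24.0, 36.4, 38.0, 46.8 and 42.3 CPM in UV-treated libraries, and 44.3, 48.7, 42.5, 16.5 and 118.6 CPM in untreated libraries. Here too the conditions overlapped, and untreated libraries spanned the widest range.

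Neither gene was called in any comparison. For gli2 the log2 fold change was −0.75 (interval −1.97 to 0.47, edgeR FDR 0.453) for LiCl-treated against untreated embryos, 0.12 (interval −1.08 to 1.33, FDR 0.970) for UV-treated against untreated embryos, and −0.87 (interval −2.09 to 0.35, FDR 0.372) for LiCl-treated against UV-treated embryos. Paired by replicate number, gli2 was lower in the LiCl-treated than in the untreated library in 5 of 5 pairs, by log2 ratios of −1.83 to −0.11. The share of all genes with the same sign in all 5 pairs was not computed here either. The block over these 10 libraries gave gli2 −0.84 at an FDR of 0.0192, not called, and over all 15 libraries −0.75 at an FDR of 0.395. For gli3 the log2 fold changes were −0.13 (interval −1.01 to 0.75, FDR 0.888), −0.53 (interval −1.41 to 0.36, FDR 0.716) and 0.39 (interval −0.49 to 1.28, FDR 0.623) in the same order of comparisons. With the block over the 10 libraries, the LiCl-treated to untreated difference of shh was 0.14 at an FDR of 0.768.

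**Figure D2:**
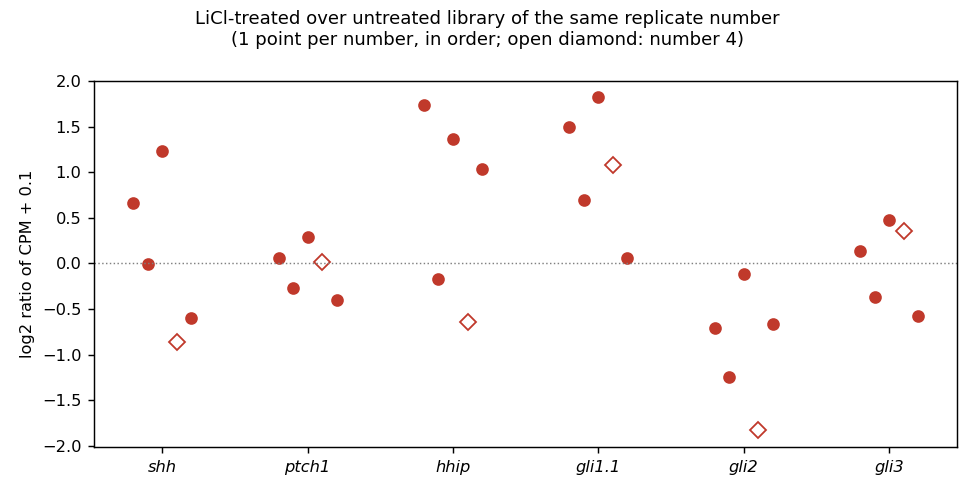
Log2 ratio of CPM + 0.1 of each LiCl-treated library over the untreated library of the same replicate number, for each of the 6 genes, with number 4 as an open diamond. gli1.1 is above 0 in all 5 pairs and gli2 below 0 in all 5, while shh is above 0 in 2 of 5. The share of all genes with the same sign in all 5 pairs was not computed.

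Counted over the 6 genes, none was called for LiCl-treated against untreated embryos, where 2.25% of all genes tested were called higher and 1.42% lower. None had an unadjusted p under 0.05 there, and DESeq2 called none. Over the 10 libraries of that comparison 908 genes were called with the replicate block and 247 without it, and no member was among either (hhip failed the filter in both). None was called for UV-treated against untreated embryos, where 0.00712% of all genes were called higher and 0.0641% lower. For that comparison shh and gli1.1 had an unadjusted p under 0.05, and DESeq2 called these 2 as lower. For LiCl-treated against UV-treated embryos 2 of 6 were called, shh and gli1.1, both higher, where 3.55% of all genes were called higher and 2.55% lower. Of these, shh passed the filter only through the conditions where it was higher. The 3 comparisons share libraries, so their counts are not independent.

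A second count took genes whose libraries did not overlap between conditions. None of the 6 was separated between LiCl-treated and untreated embryos, against 8.36% of all genes. shh was separated between UV-treated and untreated embryos (1 of 6), against 3.22% of all genes. gli1.1 was separated between LiCl-treated and UV-treated embryos (1 of 6), against 12.4% of all genes.

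**Figure D3:**
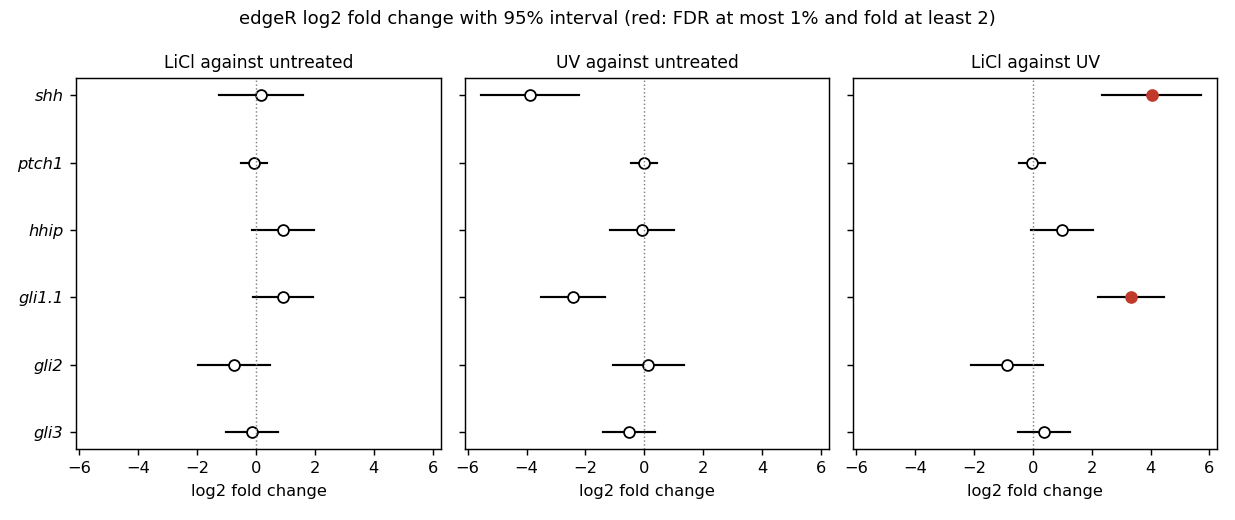
Log2 fold change with its 95% confidence interval from edgeR for the 6 Hedgehog genes in the 3 comparisons. The interval of shh for LiCl-treated against UV-treated embryos runs from 2.36 to 5.71 and that of gli1.1 from 2.23 to 4.47, while those of ptch1 stay within −0.51 and 0.41.

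Divided by exon length, the levels of the members could be set in an order within each condition. In LiCl-treated embryos gli1.1 had the highest mean level, 15.7 CPM per kb of exon (4.55 to 20.7), followed by shh at 10.5 (1.04 to 14.9), gli3 at 7.26 (3.11 to 11.7), gli2 at 2.73 (0.221 to 4.36), ptch1 at 0.766 (0.611 to 0.908) and hhip at 0.273 (0.108 to 0.523). Among neighbours in this order, only ptch1 and hhip did not overlap. In UV-treated embryos the order of levels was gli3 at 5.53 CPM per kb (3.54 to 6.91), gli2 at 5.01 (3.61 to 7.17), gli1.1 at 1.53 (0.621 to 2.33), ptch1 at 0.786 (0.539 to 0.900), shh at 0.619 (0.138 to 1.71) and hhip at 0.133 (0.0279 to 0.224). There gli2 and gli1.1 did not overlap, and shh was the fifth of the 6. In untreated embryos shh had 9.44 CPM per kb (1.95 to 20.1), gli1.1 8.29 (2.13 to 17.03), gli3 7.98 (2.43 to 17.5), gli2 4.60 (0.828 to 7.07), ptch1 0.802 (0.606 to 0.964) and hhip 0.142 (0.0903 to 0.219), and again only the last pair did not overlap. In LiCl-treated and in untreated embryos gli2 and ptch1 overlapped only through replicate 4, where gli2 was lowest. Divided by coding length instead, gli3 (11.5) came before gli1.1 (8.93) in untreated embryos.

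Within conditions the levels of the Gli genes and shh varied together from library to library, in part through a single pair of libraries. LiCl replicate 4 and untreated replicate 4 had the lowest CPM of their condition for shh, ptch1, gli1.1, gli2 and gli3. After subtraction of condition means from log2 CPM, Pearson's r over the 15 libraries was 0.87 for shh with gli1.1, 0.90 for gli1.1 with gli3 and 0.83 for gli1.1 with gli2. Without both libraries, over 13 libraries, these were 0.65, 0.74 and 0.39. For shh with gli2 the value was 0.75 with both and −0.18 without them. The points share their libraries and depth, and these are descriptions of the libraries.

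The wider pathway was read from a list of 41 genes, of which 40 were matched in the table and 36 passed the filter. A gene listed as gli1.2 was left out, since RefSeq gives that name as a synonym of sp5l, a gene of the Sp family. For LiCl-treated against untreated embryos 2 of the 36 were called higher (arl13b and kif7) and 1 lower (gas1), and the median log2 fold change was 0.15, against 0.01 over all genes. Over all genes 2.25% were called higher and 1.42% lower, and DESeq2 called scube1, which encodes a secreted protein, as higher beside the same 3 list genes. For UV-treated against untreated embryos edgeR called none, 7 had an unadjusted p under 0.05 (11.5% of all genes had one), and DESeq2 called 2, which are shh and gli1.1. The median there was −0.03, against −0.02 over all genes. For LiCl-treated against UV-treated embryos 3 were called higher (shh, gli1.1 and arl13b) and 1 lower (gas1), with a median of 0.29 against 0.03 over all genes, of which 3.55% were called higher and 2.55% lower. DESeq2 called 6 there, with lrp2 and scube1 higher beside these 4. lrp2, which encodes a large membrane receptor of the LDL receptor family, shares exon sequence with a gene on the opposite strand.

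gas1 encodes a membrane co-receptor that binds Hedgehog ligands together with Patched. It had 43.4, 38.7, 48.7, 42.0 and 58.4 CPM in LiCl-treated libraries, 107.6, 136.8, 136.3, 130.4 and 118.6 CPM in UV-treated libraries, and 151.1, 191.6, 159.4, 113.2 and 173.6 CPM in untreated libraries. Every LiCl-treated library lay below all others. gas1 fell in LiCl-treated embryos at a log2 fold change of −1.77 against untreated embryos (SE 0.147, edgeR FDR 2.08e-05) and of −1.44 against UV-treated embryos (SE 0.146, FDR 2.17e-05).

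arl13b encodes a small GTPase of the ciliary membrane that Hedgehog signalling needs in the mouse. It had 16.0, 17.3, 9.91, 11.8 and 10.8 CPM in LiCl-treated libraries, 5.50, 4.01, 6.10, 4.54 and 3.30 CPM in UV-treated libraries, and 2.94, 3.13, 3.37, 4.04 and 5.01 CPM in untreated libraries. Every LiCl-treated library lay above all others. arl13b rose at a log2 fold change of 1.82 against untreated embryos (SE 0.237, edgeR FDR 0.000399) and of 1.48 against UV-treated embryos (SE 0.234, FDR 0.000546).

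kif7 encodes a kinesin of the ciliary tip that regulates Gli proteins. It averaged 16.8 ± 4.32 CPM in LiCl-treated embryos and 8.25 ± 0.915 CPM in untreated embryos (SD, n = 5 each), a log2 fold change of 1.03 (SE 0.198, edgeR FDR 0.00388). The value lies at the edge of the 2-fold threshold, and the call was lost in 11 of 26 alternatives. These include leaving out LiCl replicate 1 (0.98), LiCl replicate 3 (1.00), LiCl replicate 4 (0.92), untreated replicate 2 (1.01) or untreated replicate 3 (0.98).

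By role, 1 of the 5 ligand and ligand-release genes tested was called for LiCl-treated against UV-treated embryos, which is shh. Over all genes tested 3.55% were called higher and 2.55% lower there, and single calls do not set a role apart. Of the 12 receptors and membrane proteins 1 was called, gas1, and smo, cdon and boc were not. smo, which encodes Smoothened, averaged 138.9 ± 46.0 CPM in LiCl-treated, 144.8 ± 22.3 CPM in UV-treated and 187.3 ± 51.6 CPM in untreated embryos (SD, n = 5 each). Of the 16 cytosolic and ciliary regulators 1 was called, arl13b. Others came close, since kif7 (log2 fold change 0.96, edgeR FDR 0.0036) and dzip1 (0.82, FDR 0.0022) missed only the fold threshold. The call of kif7 for LiCl-treated against UV-treated embryos was made in 5 of 26 alternatives. sufu, which encodes the protein that holds Gli proteins in the cytoplasm, averaged 135.4 ± 35.6 CPM in LiCl-treated, 154.7 ± 13.6 CPM in UV-treated and 154.9 ± 13.3 CPM in untreated embryos. Of the 3 Gli genes 1 was called, gli1.1.

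**Figure D4:**
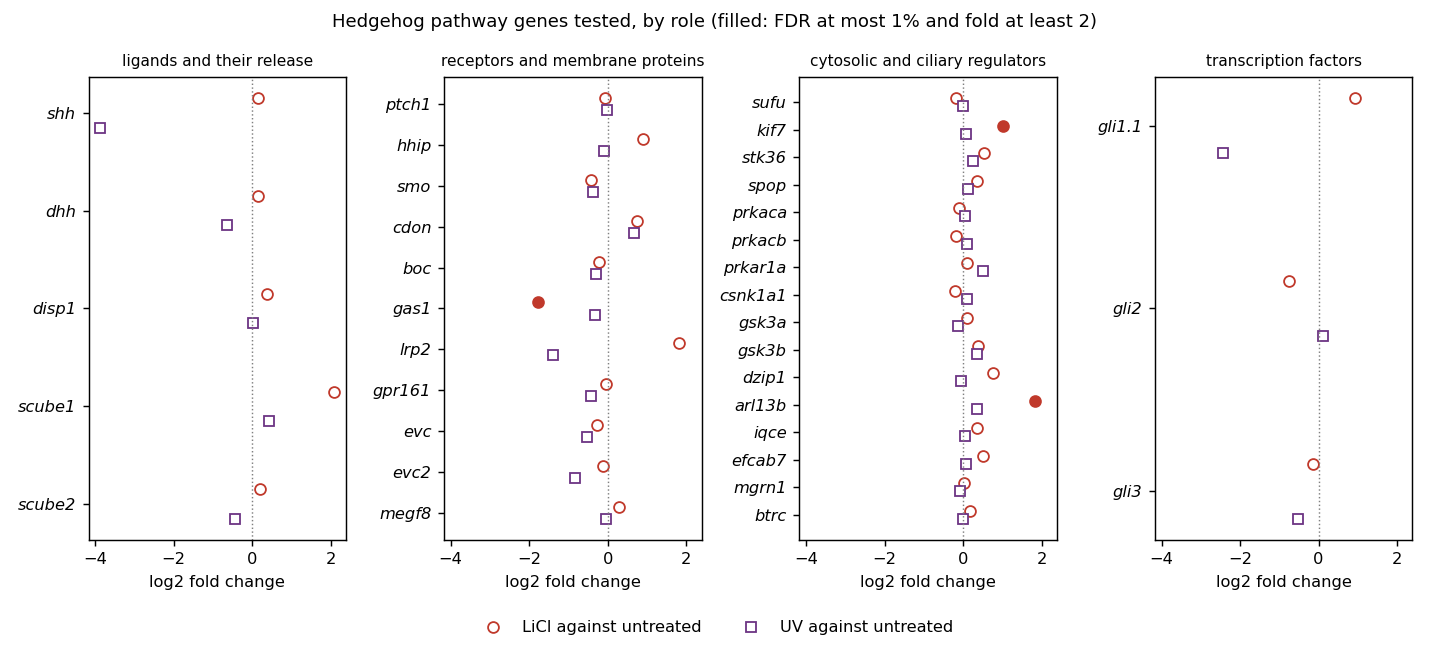
Log2 fold changes from edgeR of tested genes of the Hedgehog pathway list, grouped by role, for LiCl-treated (circles) and UV-treated embryos (squares), each against untreated embryos, with filled symbols for genes past the threshold. arl13b, kif7 and gas1 are filled for LiCl-treated embryos and no gene for UV-treated embryos, where shh lies at −3.87 and gli1.1 at −2.43.

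Genes that respond to Gli proteins in other vertebrates were read from a second list of 18, of which 14 passed the filter. In each comparison with untreated embryos edgeR called none of the 14. In both, 5 had an unadjusted p under 0.05, which 27.1% of all genes had for LiCl-treated and 11.5% for UV-treated embryos, and DESeq2 called 1 gene in each, foxf1 lower for LiCl-treated and nkx6-2 lower for UV-treated embryos. For LiCl-treated against UV-treated embryos edgeR called 3 higher and none lower, against 3.55% and 2.55% of all genes, and the median log2 fold change was 0.82 against 0.03 over all genes. DESeq2 called 4 higher, with foxa2 added, and 1 lower, foxf1, whose log2 fold change in edgeR was −2.57 (SE 0.859, FDR 0.0557). The genes called by edgeR were nkx6-2 and nkx2-2, which encode homeodomain proteins of the ventral neural tube, and mycn, which encodes a Myc transcription factor. nkx2-2 passed the filter only through the conditions where it was higher. It is part of the count of 3 and of the median, and neither was computed without it. The list was written with earlier results of these data known, so these counts describe it and do not test it.

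nkx6-2 had 23.7, 22.0, 31.1, 13.5 and 49.6 CPM in LiCl-treated libraries, 6.53, 6.25, 6.96, 2.42 and 1.91 CPM in UV-treated libraries, and 27.5, 40.5, 24.4, 7.61 and 72.7 CPM in untreated libraries. Every UV-treated library lay below all others. The log2 fold change for LiCl-treated against UV-treated embryos was 2.53 (SE 0.537, edgeR FDR 0.00445), and the call was lost in 7 of 26 alternatives, among them those without LiCl replicate 3 (2.49), LiCl replicate 5 (2.22), UV replicate 4 (2.36) and UV replicate 5 (2.33). For UV-treated against untreated embryos it was −2.84 at an FDR of 0.0275, not called. mycn averaged 26.8 ± 6.17 CPM in LiCl-treated and 12.1 ± 2.07 CPM in UV-treated embryos (SD, n = 5 each), a log2 fold change of 1.15 (SE 0.192, FDR 0.000835). Its call was lost with glmTreat, which tests against a fold change of 2 (FDR 0.830). nkx2-2 was low throughout, at 0.951 ± 0.522 CPM in LiCl-treated and 0.0921 ± 0.0754 CPM in UV-treated embryos, with a log2 fold change of 3.23 (SE 0.645, FDR 0.0030) that lost its call without UV replicate 4 (3.10) or UV replicate 5 (3.21). No UV-treated library exceeded 0.206 CPM, so nkx2-2 passed the filter only through libraries of the other conditions, where it was higher. It was tested in 23 of the 26 alternatives and failed the filter in the others, where no call could be made. With no filter on low counts it was still called.

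The tissues that express shh were read from a list of axial midline genes, of which 10 passed the filter with shh among them. The list was written with earlier results of these data known. The study had already named gsc, nog, chrd and foxa4 as higher in LiCl-treated than in UV-treated embryos of these libraries. It also named admp among genes upregulated in LiCl-treated embryos and t among those upregulated in UV-treated embryos. The counts below therefore describe the list and are no test of it, also where shares of all genes stand beside them. For LiCl-treated against UV-treated embryos 6 of 10 were called higher, admp, chrd, foxa4, gsc, nog and shh, and 1 lower, t, which encodes the mesodermal transcription factor Brachyury, where 3.55% of all genes were called higher and 2.55% lower. chrd and nog encode the secreted BMP antagonists Chordin and Noggin, admp a BMP-like ligand of the organiser, gsc the organiser homeodomain protein Goosecoid, and foxa4 a forkhead factor of the midline. The log2 fold changes were 3.78 for chrd (SE 0.478, edgeR FDR 0.000119) and 1.64 for foxa4 (SE 0.120, FDR 3.49e-06), and t had −1.13 (SE 0.102, FDR 1.02e-05). chrd shares exon sequence with a gene on the opposite strand, and the strand setting of the counting is not given in the sources used here. In each comparison with untreated embryos the edgeR fit of all 15 libraries called none of the 10. Yet 6 of the 10 did not overlap between LiCl-treated and untreated libraries in either direction, against 8.36% of all genes. Among them t was lower in LiCl-treated embryos and the others were higher. Between UV-treated and untreated libraries 8 did not, against 3.22% of all genes, and there t was higher in UV-treated embryos and the others were lower. The counts of unadjusted p below also take both directions. For LiCl-treated embryos 7 had an unadjusted p under 0.05 (27.1% of all genes) and DESeq2 called 2 higher, and for UV-treated embryos 8 had one (11.5% of all genes) and DESeq2 called 5 lower. With the replicate block over the LiCl-treated and untreated libraries, admp (1.05, FDR 0.000126), chrd (1.61, FDR 3.57e-05), gsc (1.50, FDR 0.0023) and nog (1.13, FDR 0.000681) were called higher. The same 10 libraries without the block also called admp (FDR 0.000751), chrd (FDR 0.000751) and nog (FDR 0.00462), but not gsc. A block over all 15 libraries called none of them.

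The summed level of the 9 midline genes other than shh lay between 3123 and 3682 CPM in LiCl-treated libraries, between 1533 and 1860 CPM in UV-treated libraries and between 2127 and 2277 CPM in untreated libraries, with no overlap between conditions. The summed level of the 6 Hedgehog genes lay between 47.9 and 206.1 CPM in LiCl-treated libraries, between 56.5 and 99.5 CPM in UV-treated libraries and between 37.5 and 266.8 CPM in untreated libraries. Its lowest values were in LiCl and untreated replicate 4. The midline sum was lowest in LiCl replicate 2 and untreated replicate 1, but it is carried by abundant genes. Of its members, foxa2, a forkhead gene of the midline and endoderm, had 8.46 CPM in LiCl replicate 4 and 15.1 CPM in untreated replicate 4, the lowest of each condition. foxa1 was also lowest in these libraries, at 46.1 and 88.6 CPM, while gsc was highest in them, at 568.9 and 221.9 CPM. The other midline genes were mixed. nog was highest in LiCl replicate 4 (71.4 CPM), and chrd (214.7 CPM) and foxa4 (426.9 CPM) were highest in untreated replicate 4. In turn foxa4 (595.6 CPM) and admp (542.6 CPM) were lowest in LiCl replicate 4, and t (638.4 CPM) was lowest in untreated replicate 4. The epidermal sum of 5 genes ran from 637 to 1852 CPM in LiCl-treated libraries, from 5502 to 11598 CPM in UV-treated libraries and from 3527 to 7505 CPM in untreated libraries. For neural plate genes the sum of 6 ran from 1432 to 2102 CPM in LiCl-treated, from 699 to 1340 CPM in UV-treated and from 1676 to 2194 CPM in untreated libraries. The part of these tissues in the differences of shh and gli1.1 was not tested.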

How the data were processed

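RNA was sequenced from 15 libraries of 10 pooled embryos. Per the labels and the study's methods, paired-end reads were aligned by the authors to the gene models with TopHat2 (versions 2.0.10 and 2.1.1 are named in the submitters' processing notes, with CASAVA 1.8.2) and counted per gene with HTSeq. The deposited values are raw counts, not normalised. The strand setting and the HTSeq version are not given in the sources used here. The deposited gene models gave positions on assembly v7.1 and exon lengths.

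The analysis used edgeR 4.0.16 in R 4.3.3 (filterByExpr, TMM, and a robust quasi-likelihood fit of condition alone to the 15 libraries together). An F test was run for each of the 3 comparisons, with Benjamini-Hochberg adjustment over 14041 genes. The script was tested on simulated data. Fold changes use a prior count of 0.125, and the SE is the size of the log2 fold change over the root of F. Alternatives were DESeq2 1.42.0, glmTreat, other normalisation, filter and FDR settings, a replicate block, and leaving out each library.

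The members and lists were chosen with earlier results of these data known. Genes named are the 6 members, genes of the Hedgehog, Gli target and midline lists called in any comparison, and the 5 genes closest to shh and to gli1.1 by Pearson's r. Other genes, such as smo and sufu, were named after their values were seen. Libraries of a condition come from independent experiments. Whether a replicate number marks a shared clutch is not given in the labels. Deviations of same-numbered LiCl-treated and untreated libraries correlated in 5 of 5 pairs (r 0.34 to 0.73) and were taken as paired. The untreated library with the highest r had the same number for 4 of 5 LiCl-treated libraries, and LiCl replicate 3 matched untreated replicate 2 best. Between LiCl-treated and UV-treated libraries the same number was also the best match in 4 of 5. UV-treated libraries were not taken as paired, since their lowest r was −0.25 with untreated and −0.12 with LiCl-treated libraries. Both of these were in number 4. In the other 4 numbers r was 0.25 to 0.54 with untreated and 0.25 to 0.39 with LiCl-treated libraries, so the choice rests on 1 number. Symbols were matched to RefSeq for 5 of the 6 members. A gene on the pathway list and a gene close to shh are not reported here by name. No sequence was printed, and promoter motifs were not analysed here.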

Additional observations from a re-analysis of the deposited data

How the results depend on the processing

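Calls of gli1.1 for LiCl-treated against UV-treated embryos held under all 26 alternatives. That of shh held in 25 and was lost with glmTreat (4.03, FDR 0.0136). The settings with an FDR of 0.05 or no fold threshold only loosen the main threshold, so neither call could be lost there. Other calls of that comparison lost with glmTreat included mycn (FDR 0.830), t (0.457), arl13b (0.134) and gas1 (0.0257). For LiCl-treated against untreated embryos glmTreat also lost the call of arl13b (FDR 0.0248). For UV-treated against untreated embryos, shh was past the threshold with DESeq2 (−3.91), at an FDR of 0.05 (−3.87), with a replicate block over 15 libraries (−3.96) and without LiCl and untreated replicate 4 (−4.10), but not with the replicate block over 10 libraries (−3.94, FDR 0.0479). gli1.1 was past it with DESeq2 (−2.43), at an FDR of 0.05 (−2.43) and without those 2 libraries (−2.66). The block fits of this comparison treat UV-treated libraries as paired by number, although they were not taken as paired here. For LiCl-treated against untreated embryos, leaving out both replicate 4 gave 0.22 for shh (edgeR FDR 0.811) and 0.94 for gli1.1 (FDR 0.0801). In the same fit gli2 had −0.69 (FDR 0.0848) and hhip 1.33 (FDR 0.105), and none of these was called. The ratios by replicate number and the block fits were not repeated without number 4. Signs turned only for uncalled values. These were gli3 for LiCl-treated against untreated embryos with the replicate block over 10 libraries (0.00033), and, without both replicate 4, hhip (0.15) and gli2 (−0.13) for UV-treated against untreated and ptch1 (0.043) for LiCl-treated against UV-treated embryos. 

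Leaving out 1 library gave, for LiCl-treated against untreated embryos, −0.11 to 0.63 for shh, −0.16 to 0.0030 for ptch1, −0.38 to 0.37 for gli3 and −0.61 to 0.16 for nkx6-2. For UV-treated against untreated embryos it gave −4.77 to −3.39 for shh, −2.68 to −1.99 for gli1.1, −0.11 to 0.081 for ptch1, −0.38 to 0.14 for hhip and −0.15 to 0.35 for gli2. For LiCl-treated against UV-treated embryos ptch1 lay between −0.15 and 0.030.

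The number of genes called for LiCl-treated against untreated embryos was 515, against 1198 with DESeq2, 47 with glmTreat, 1062 at an FDR of 0.05, 908 with the replicate block over 10 libraries, 247 in those libraries without it and 265 to 701 without 1 library, where leaving out LiCl replicate 2 or untreated replicate 1, 2 or 3 moved it by more than 1.5 times (265, 291, 342 and 335). For UV-treated against untreated embryos 10 genes were called, against 130 with DESeq2, 0 with glmTreat, 68 at an FDR of 0.05, 46 with the replicate block over 15 libraries, 0 over 10 libraries with or without it, 130 without both replicate 4, and 3 to 41 without 1 library (LiCl replicate 4 gave 33, UV replicates 1 to 5 gave 3, 3, 41, 3 and 5, and untreated replicates 1 to 3 gave 4, 3 and 6). LiCl-treated against UV-treated embryos had 857 genes called, against 1595 with DESeq2, 247 with glmTreat, 1438 at an FDR of 0.05, 1353 without both replicate 4, and 618 to 1140 without 1 library. The causes were not tested. hhip failed the filter in the 10-library fits of all 3 comparisons and was not tested there.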

Other observations

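Genes whose levels ran close to shh and gli1.1 over the 15 libraries were read among 12838 genes by Pearson's r on log2 CPM, as a description. For shh these included fst (r = 0.967), which encodes the secreted activin and BMP inhibitor Follistatin, foxb1 (0.961), a forkhead gene, kcp (0.959) and irx1 (0.955), an Iroquois homeobox gene. For gli1.1 they were exoc3l2 (0.974), zeb2 (0.972), a zinc-finger transcription factor gene, gjb2 (0.960), a connexin gene, tdgf1p2 (0.959) and rab34 (0.953), which encodes a Rab GTPase. After subtraction of condition means, r over the 15 libraries lay between 0.85 and 0.95 for the genes beside shh and between 0.84 and 0.95 for those beside gli1.1. These values include LiCl and untreated replicate 4 and were not computed without them, so the part of that pair of libraries is not known. shh with gli1.1 had an r of 0.931. The libraries share depth and condition.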
